A study of Homo sapiens with 4 samples.

Results

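Mitochondrial ribosomal proteins are the proteins of the ribosome inside mitochondria, and the 78 genes described here are those whose symbol is MRPL or MRPS followed by a number and, for some, a letter A to C. They are 78 of the 60617 genes listed, with 49 MRPL symbols for the large subunit and 29 MRPS symbols for the small subunit. All 78 passed the filter on low counts, the lowest having 60 reads in a library. The assay was poly-A RNA sequencing of U87MG, a long-used cell line from a human glioblastoma. It was kept as spheres in DMEM/F12 with EGF and bFGF (20 ng/ml each), N2 and B27 (2%). The groups were 2 libraries of spheres given Abemaciclib, a small-molecule inhibitor of the cell cycle kinases CDK4 and CDK6, and 2 libraries of untreated spheres, all with a time of 14 days. Neither the dose nor any vehicle is named in the labels. No label says that the 2 libraries of a group came from separate cultures, so p-values measure only how far these libraries spread, and that spread may be technical.

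The mitochondrial ribosome translates the few proteins that mitochondrial DNA encodes, all of them subunits of the respiratory chain and the ATP synthase. Its RNA is made inside the organelle, while every one of its proteins is encoded in the nucleus, made in the cytosol and imported. Many of its proteins descend from the bacterial ribosome and others were added in mitochondria, which gives it a protein-rich build. In promoters of nuclear genes for mitochondrial proteins, sites for the transcription factors NRF1, GABPA (an ETS factor) and YY1 have often been described.

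The libraries held 23684260 and 33226884 counts (abemaciclib) and 27485206 and 33418075 counts (untreated). Genes encoded in mitochondrial DNA held 11.8% and 11.7% of the counts in the abemaciclib libraries and 4.27% and 4.66% in the untreated libraries. Levels are given as CPM, counts relative to library depth scaled by TMM (trimmed mean of M-values), and calls come from edgeR's quasi-likelihood test with Benjamini-Hochberg adjustment over all 17207 genes tested. Fold changes are abemaciclib over untreated on the log2 scale. Markers of the line were present in all 4 libraries but lower after abemaciclib, TNC 5.05-fold, CD44 2.80-fold, NES 1.41-fold, VIM 1.37-fold and S100A6 1.07-fold. CDKN2A and MTAP, which lie in a region deleted in this line, had 0 and at most 1 count, and the immune gene AIF1 had 0 counts. CD68, a lysosomal protein used as a macrophage marker, was at 1100 and 1073 CPM after abemaciclib and 512.5 and 502.6 CPM untreated, while the pan-leukocyte gene PTPRC was called 4.64-fold higher at levels below 1 CPM in each library. Among endothelial and epithelial markers PECAM1 was 8.79-fold and KRT8 2.62-fold lower, and EPCAM was 2.25-fold and VWF 1.32-fold higher. KRT18 did not pass, and CD3E, CDH5 and KRT19 had too few counts to be tested. The part of such differences in the members' values was not tested.

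Sequences before the starts of members were searched because the members share a function and mostly moved one way. RefSeq promoters (GRCh38.p14) matched 69 of the 78 symbols, and the 250 bases before the start were read on both strands for the NRF1 motif, for CCGGAAG (ETS factors) and for AAGATGGCG (YY1), with overlaps between motifs allowed. The ETS letters were in 23 of 69 member promoters (33.3%), against 14.9% of the 11426 promoters of tested genes in the table. The NRF1 motif was in 8 (11.6%, against 9.81%) and the YY1 letters in 3 (4.35%, against 1.02%). At least 1 of the 3 motifs was in 32 member promoters (46.4%), against 2713 of the 11426 of tested genes. By direction, the ETS letters were in 15 of 51 promoters of members called higher, 2 of 8 called lower and 6 of 10 not called. The following 60-base stretches, given 5′ to 3′ on the gene's strand with the motif in capitals, come, for the NRF1 and ETS motifs, from the called members with the largest changes that have a stretch with the motif clear of annotated exons. No called member with the YY1 letters had such a stretch. MRPL36 (chr5:1799913-1799972, minus strand) and MRPL17 (chr11:6683402-6683461, minus strand) hold the NRF1 motif 110 and 81 bases before the RefSeq start. MRPL20 (chr1:1407314-1407373, minus strand) and MRPS10 (chr6:42217866-42217925, minus strand) hold the ETS letters 44 and 22 bases before it. These starts can differ from the GENCODE gene ends used elsewhere: the MRPL36 stretch lies inside the GENCODE gene (chromosome 5, 1798386 to 1801366), between its exons, and the MRPL17 stretch ends beside the GENCODE start at 6683401.
MRPL36: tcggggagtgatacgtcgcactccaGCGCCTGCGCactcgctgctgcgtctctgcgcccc
MRPL17: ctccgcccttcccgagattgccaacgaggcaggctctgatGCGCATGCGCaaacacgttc
MRPL20: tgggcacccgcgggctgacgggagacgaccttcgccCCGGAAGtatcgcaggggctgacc
MRPS10: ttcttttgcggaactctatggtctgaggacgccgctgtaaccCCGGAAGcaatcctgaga
A match describes these letters in this window and not binding. On the log2 scale these 4 genes were higher after the drug, MRPL20 by 0.85, MRPS10 by 0.78, MRPL36 by 0.37 and MRPL17 by 0.31. They were picked from called members, of which 7 with the NRF1 motif were higher and 0 lower, and 15 with the ETS letters higher and 2 lower. Their shared direction was thus largely set by the choice and says nothing about the motifs.

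Most mitochondrial ribosomal protein genes were higher after abemaciclib, by modest amounts. Of the 78 members 56 were higher, 11 lower and 11 not past an adjusted p of 0.05 in the edgeR test. Thus 71.8% of the members were higher and 14.1% lower, while among all tested genes 77.3% were called, 38% higher and 39.3% lower. The median log2 fold change of the members was 0.41, with quartiles of 0.11 and 0.66, and the median of all tested genes was -0.01. The changes were small for most members: 26 were called and at least 1.5-fold higher (23.3% of all tested genes were), 5 at least 2-fold higher (13.8%), and 1 at least 2-fold lower (17.4%). The abemaciclib libraries lay above both untreated libraries in 60 members, below both in 13, and overlapped with them in 5. Over all tested genes the groups did not overlap in 87.9%, 43.4% with abemaciclib above and 44.5% with it below. In bulk RNA, fewer cells of a type and less RNA per cell cannot be told apart. The members together held 0.289% and 0.29% of all counts after abemaciclib and 0.23% and 0.227% untreated.

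**Figure D1:**
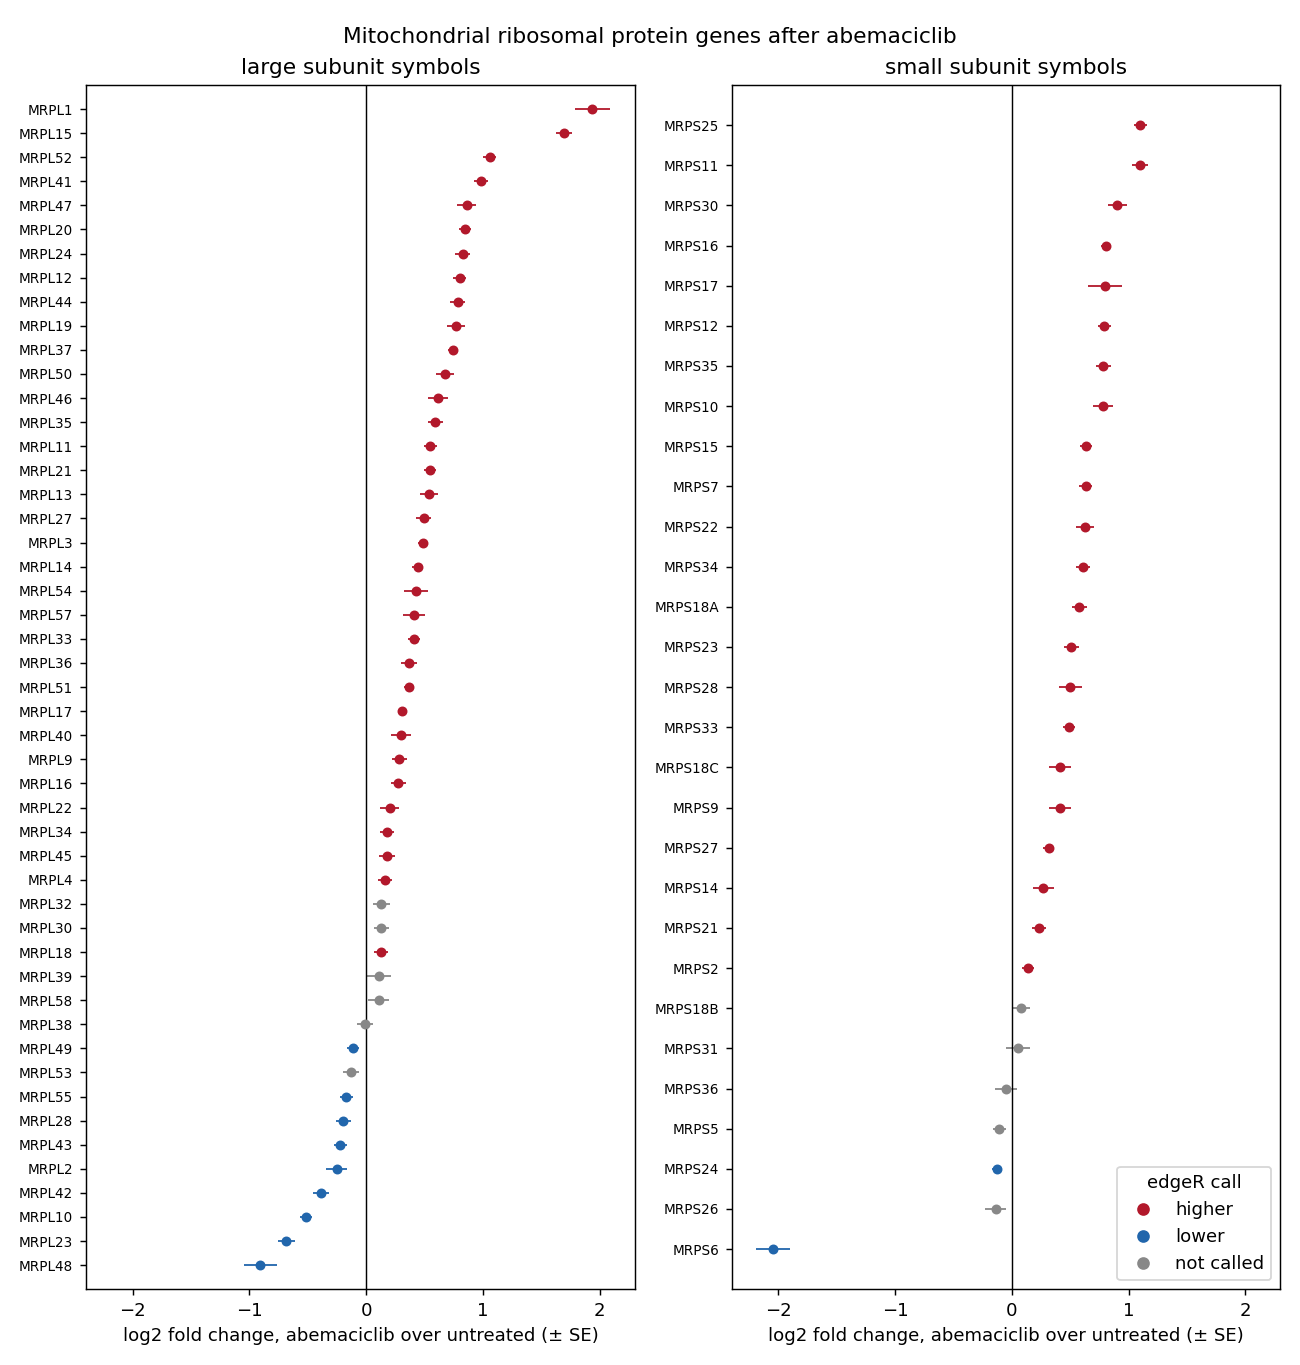
Log2 fold change (abemaciclib over untreated, horizontal axis, with its standard error) of the 49 large subunit and 29 small subunit symbols, one row per gene, coloured by the edgeR call. In the large subunit 34 are higher and 9 lower, in the small subunit 22 are higher and 2 lower, and MRPS6 stands apart at -2.05.

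Both subunits moved the same way. Among MRPL symbols 34 of 49 were higher, 9 lower and 6 not called, with a median of 0.36. Among MRPS symbols 22 of 29 were higher, 2 lower and 5 not called, with a median of 0.50. The quartiles were 0.11 and 0.62 for the large and 0.14 and 0.78 for the small subunit, so the spread among members of a subunit was larger than the distance between the subunit medians. Over 12 alternatives of the fit the medians stayed between 0.31 and 0.42 for MRPL and between 0.40 and 0.56 for MRPS. Symbols follow history and not always place: MRPS30 and MRPS18A sit in the large subunit of the human mitoribosome, and MRPS36 is a subunit of the oxoglutarate dehydrogenase complex.

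MRPL1 rose furthest in the edgeR fit, and MRPL41 did so with a correction for the GC content and length of the transcript (1.91, against 1.83 for MRPL1). MRPL1 encodes the homologue of the bacterial protein of the L1 stalk, which flanks the exit site for tRNA, and lies at GRCh38 chromosome 4, 77862520 to 77952790. It was at 9.51 and 8.74 CPM in the abemaciclib libraries and at 2.22 and 2.51 CPM in the untreated libraries, a log2 fold change of 1.94 ± 0.15 (SE, adjusted p = 3.54e-13 in edgeR). The groups lay far apart, although this is the member with the fewest reads untreated, at 60 and 82 counts. MRPL15, another protein with a bacterial homologue, was at 48.2 and 48.7 CPM after the drug and at 13.9 and 16 CPM untreated (1.69 ± 0.07). The fold changes of MRPL1 and MRPL15 were 3.82 and 3.23, and their log2 values with the GC and length correction were 1.83 and 1.58.

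MRPL52, a protein of the mitochondrial ribosome with no bacterial homologue, had 50.4 and 47.2 CPM after abemaciclib, against 23.5 and 23.3 CPM untreated (1.06 ± 0.06). MRPL41, also specific to mitochondria, had 60.8 and 69.4 CPM after the drug, against 32.7 and 33.6 CPM untreated (0.98 ± 0.06). MRPL47, the homologue of bacterial L29 beside the exit of the peptide tunnel, rose by 0.86 ± 0.08 and MRPL20 by 0.85 ± 0.05. In none of these did the libraries of the groups overlap. MRPL12, the stalk protein that recruits translation factors and has been reported to bind the mitochondrial RNA polymerase, was at 55 and 53.9 CPM after abemaciclib and at 32 and 30.6 CPM untreated (0.80 ± 0.05). MRPL44, which has the fold of an RNase III enzyme, rose by 0.78 ± 0.06, and MRPL37, a large mitochondria-specific protein, by 0.74 ± 0.04.

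MRPL11, at the site where elongation factors bind, was at 44.8 and 46.2 CPM after the drug and at 29.1 and 32.9 CPM untreated (0.55 ± 0.06). MRPL3, which reaches towards the peptidyl transferase centre, was at 75.8 and 76.3 CPM after the drug and at 51.9 and 56.4 CPM untreated (0.49 ± 0.04). MRPL45, which holds the ribosome at the inner membrane, rose by 0.18 ± 0.07 (adjusted p = 0.0159 in edgeR), a call that was lost with DESeq2 (adjusted p = 0.179) and with the GC and length correction (adjusted p = 0.385). MRPL45 also has pseudogenes, which held 5.69% and 3.52% of their joint counts after the drug and 3.73% and 3.78% untreated.

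In the small subunit MRPS25 and MRPS11 rose furthest in the edgeR fit, and MRPS34 did so with the GC and length correction (1.22, against 1.13 for MRPS11, 1.12 for MRPS12 and 1.03 for MRPS25). MRPS25, specific to mitochondria (chromosome 3, 15042460 to 15065335), had 66 and 64.1 CPM after abemaciclib, against 28.4 and 32 CPM untreated (1.10 ± 0.05, adjusted p = 8.57e-18 in edgeR). MRPS11, the homologue of bacterial S11 on the platform of the subunit (chromosome 15, 88467453 to 88480773), had 38.7 and 37.2 CPM after the drug, against 16.8 and 18.5 CPM untreated (1.10 ± 0.07). The groups did not overlap in either gene. MRPS30 rose by 0.90 ± 0.08 and MRPS16, the homologue of bacterial S16, by 0.81 ± 0.04. MRPS12, the protein of the decoding centre, had 46.6 and 45.8 CPM after the drug, against 26 and 27.2 CPM untreated (0.79 ± 0.06). MRPS17 rose by 0.80 ± 0.15 at a low level, with 6.27 and 7.85 CPM after the drug and 4.33 and 3.91 CPM untreated.

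MRPS22, a mitochondria-specific protein, was at 24.8 and 23.2 CPM after abemaciclib and at 15.8 and 15.3 CPM untreated (0.62 ± 0.08). MRPS27, a pentatricopeptide repeat protein, rose by 0.32 ± 0.05, with 57.2 and 56.9 CPM after the drug and 45.1 and 46.5 CPM untreated. MRPS16 shares exon sequence on its strand with DNAJC9, a chaperone of histones that rose by 1.21 ± 0.05, and MRPS12 overlaps SARS2, the mitochondrial seryl-tRNA synthetase, on the other strand (0.39 ± 0.11). MRPS17 also shares exon sequence on its strand, with NIPSNAP2 and AC092647.5, and MRPS25 overlaps NR2C2 on the other strand. The kit marks strand, but how strand was set when reads were counted is not known here. Reads from such pairs may thus not be told apart.

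**Figure D2:**
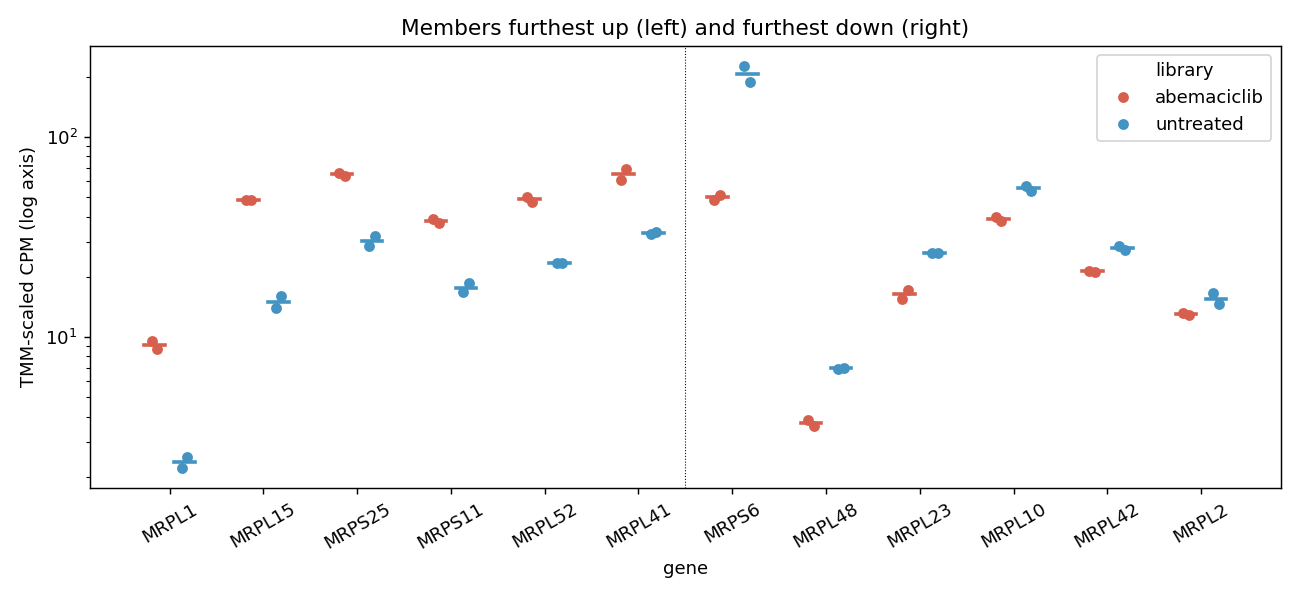
TMM-scaled CPM (log axis) per library for the 6 members with the largest rise and the 6 with the largest fall among those called, with a short bar at the mean of 2 libraries. MRPL1 has 9.51 and 8.74 CPM after abemaciclib against 2.22 and 2.51 CPM untreated, MRPS6 has 48.7 and 51.2 CPM against 226.4 and 188.4 CPM, and the groups do not overlap in any of the 12.

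The MRPS18 genes are 3 relatives of a single bacterial ribosomal protein, S18, that sit at different places of the ribosome, MRPS18C at the place of S18. They did not share 1 size of change. MRPS18A had 29.7 and 29.4 CPM after abemaciclib, against 19.7 and 19.9 CPM untreated (0.58 ± 0.07, adjusted p = 4.96e-09 in edgeR). MRPS18C had 15 and 15.6 CPM after the drug, against 12.3 and 10.8 CPM untreated (0.41 ± 0.09, adjusted p = 2.33e-04 in edgeR). MRPS18B had 20.7 and 20.3 CPM after the drug, against 20.2 and 18.6 CPM untreated (0.08 ± 0.08, adjusted p = 0.346 in edgeR). The difference between the paralogs was not tested. With the GC and length correction MRPS18B was called higher (0.18, adjusted p = 0.0324 in edgeR).

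MRPS6 stood apart from all other members. It encodes the homologue of bacterial S6 and lies at chromosome 21, 34073224 to 34143034. It was at 48.7 and 51.2 CPM after abemaciclib and at 226.4 and 188.4 CPM untreated, a log2 fold change of -2.05 ± 0.15 (adjusted p = 0.00392 in edgeR), or 4.14-fold lower. Its untreated libraries differed more from each other than those of most members, and without abemaciclib replicate 2 the call was lost (adjusted p = 0.0529, log2 fold change -2.08). In GENCODE release 29, MRPS6 shares exon sequence on its own strand with SLC5A3, a myo-inositol transporter. SLC5A3 was at 22 and 20.3 CPM after the drug and at 247.1 and 203.7 CPM untreated (-3.42 ± 0.18, adjusted p = 0.00226 in edgeR), so its libraries were ordered as those of MRPS6 were. The expected counts of MRPS6 were not whole numbers, as those of 59 members were. The part of SLC5A3 reads in the fall of MRPS6 was not tested.

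In the large subunit MRPL48, MRPL23, MRPL10 and MRPL42 fell furthest. MRPL48, a mitochondria-specific protein of the central protuberance, had 3.86 and 3.6 CPM after abemaciclib, against 6.93 and 7.03 CPM untreated (-0.91 ± 0.14, adjusted p = 1.13e-06 in edgeR). MRPL10, which holds the stalk of MRPL12 copies to the ribosome, had 40 and 37.9 CPM after the drug, against 57 and 53.9 CPM untreated (-0.51 ± 0.05). MRPL10 fell while its stalk partner MRPL12 rose. MRPL42 had 21.3 and 21.3 CPM after the drug, against 28.5 and 27.1 CPM untreated (-0.38 ± 0.07). MRPL48, MRPL10 and MRPL42 kept their call in each of 12 alternatives of the fit. MRPL23, a protein at the exit of the peptide tunnel, had 15.5 and 17.2 CPM after the drug, against 26.4 and 26.4 CPM untreated (-0.68 ± 0.08), and this call was lost with the GC and length correction (0.028, adjusted p = 0.746).

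The other falls were small and depended on the processing. MRPL2, close to the peptidyl transferase centre, had a log2 fold change of -0.25 ± 0.09, and its call was lost without untreated replicate 1 (adjusted p = 0.183), without abemaciclib replicate 2 (0.0714), with DESeq2 (0.203) and with the GC and length correction (0.606). MRPL43 (-0.22 ± 0.06) was at 0.020 with that correction. MRPS24, the homologue of bacterial S3 at the mRNA entry, had 65.8 and 61.1 CPM after the drug, against 68.1 and 70.2 CPM untreated (-0.13 ± 0.04, adjusted p = 0.00946 in edgeR), and was called higher with the correction (0.24). The remaining ones, MRPL28, MRPL55 and MRPL49, fell by 0.20, 0.17 and 0.11 on the log2 scale, and none of them kept the call with the correction: MRPL28 was then called higher, at 0.20.

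The GC content of the transcript moved with the calls. It had a median of 55.4% in the 11 members called lower, 51.5% in those not called and 48.5% in the 56 called higher. In a fit with offsets for GC content and length, 57 members were higher and 4 lower, the 4 being MRPS6, MRPL48, MRPL42 and MRPL10, and 52 of the 56 risers were again called higher. The offsets are set by GC content and length, so the larger values of members rich in GC there follow from the correction. MRPL41, at 72% GC, had 1.91 in place of 0.98, MRPL12 1.40 in place of 0.80, and MRPS34 1.22 in place of 0.61, which changed the order of the largest rises. MRPL38 and MRPS26, not called without the offsets, were called higher with them (0.57 and 0.40). The median of all tested genes also moved with the offsets, from -0.01 to 0.07. The part of GC content in the uncorrected values was not otherwise tested.

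**Figure D3:**
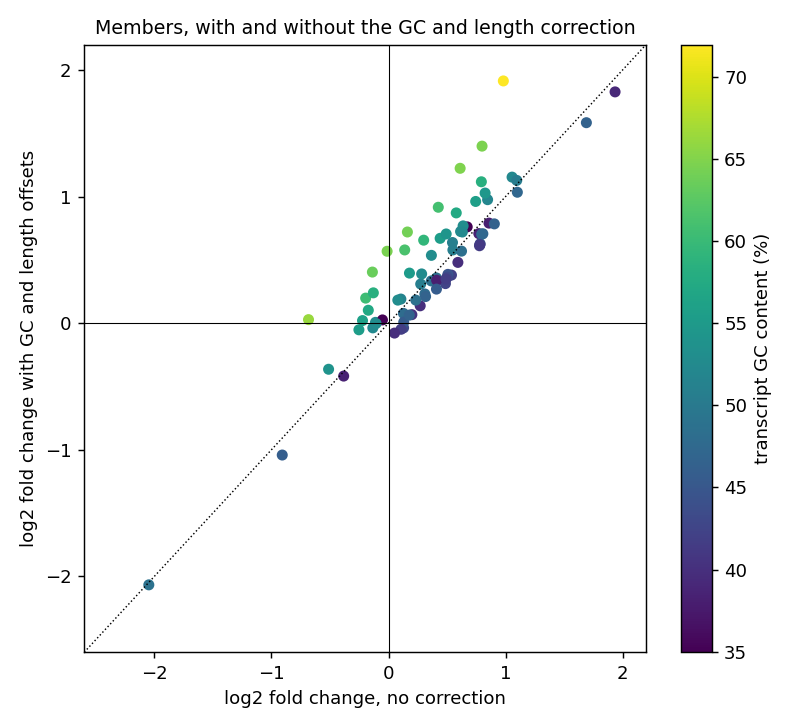
Log2 fold change of the 78 members without (horizontal axis) and with (vertical axis) offsets for transcript GC content and length, coloured by GC content, with a dotted line of equal values. MRPL41, at 72% GC, lies furthest above the line. MRPS6, MRPL48, MRPL42 and MRPL10 are the members called lower in both fits.

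Members that did not pass were MRPL30, MRPL32, MRPL38, MRPL39, MRPL53, MRPL58, MRPS5, MRPS18B, MRPS26, MRPS31 and MRPS36. MRPL58, the peptidyl-tRNA hydrolase built into the large subunit, had 14.1 and 14.3 CPM after abemaciclib and 12.8 and 13.5 CPM untreated (0.11 ± 0.09, adjusted p = 0.286 in edgeR). MRPL38 had 27 and 31.1 CPM after the drug and 28.6 and 30.3 CPM untreated (-0.01 ± 0.07). MRPL30 was at 0.13 ± 0.06, MRPL32 at 0.13 ± 0.07 and MRPL53 at -0.13 ± 0.07. MRPS5, the homologue of bacterial S5, had 40.1 and 42 CPM after the drug and 43.3 and 45.3 CPM untreated (-0.11 ± 0.05, adjusted p = 0.0666 in edgeR). MRPS36, which is not a ribosomal protein, had 13.8 and 16.8 CPM after the drug and 14.8 and 17.1 CPM untreated (-0.05 ± 0.10), and MRPS26 had -0.14 ± 0.09. MRPS31 is the member with the largest pseudogene share, with 7.56% and 13.9% of the joint counts after the drug and 11.2% and 15.5% untreated. Only it and MRPL45 exceeded 5% in any library, of 34 members with a pseudogene of their name in the files.

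Levels of different genes were compared per kb of the principal transcript and ranked by their mean over both groups, so the order within a group can differ. The highest members were MRPS6 (50.4 ± 1.77 CPM per kb after abemaciclib and 209.5 ± 27.1 untreated, SD, n = 2), MRPL33 (107.9 after the drug and 81.4 untreated) and MRPS24 (89.8 after the drug and 97.8 untreated). MRPL51 (82.6 after the drug and 64.2 untreated), MRPL20 (91.8 after the drug and 51.1 untreated) and MRPS15 (60 after the drug and 38.5 untreated) followed among the 3 highest of their subunits. The lowest in the large subunit were MRPL42 (1.37 after the drug and 1.78 untreated), MRPL48 (2.43 after the drug and 4.54 untreated) and MRPL1 (6.12 after the drug and 1.59 untreated). The lowest in the small subunit were MRPS17 (3.83 after the drug and 2.23 untreated), MRPS23 (6.13 after the drug and 4.33 untreated) and MRPS14 (7.40 after the drug and 6.19 untreated). The levels per kb thus differed widely between members, and MRPL42's value rests on a principal transcript of 15582 bases. Untreated, MRPS6 was the highest member per kb, and after the drug 11 members were above it.

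The summed level of each subunit was higher after abemaciclib. MRPL genes summed to 1822 and 1827 CPM after the drug and to 1413 and 1427 CPM untreated, 1.28-fold higher. MRPS genes summed to 1022 and 1018 CPM after the drug and to 928.7 and 887.9 CPM untreated, 1.12-fold higher. The large over small ratio was 1.78 and 1.79 after abemaciclib and 1.52 and 1.61 untreated, so the groups did not overlap. MRPS6 alone decided that difference. Without it, left out after its values were seen, the small subunit summed to 973.1 and 967.3 CPM after the drug and to 702.4 and 699.5 CPM untreated, 1.38-fold higher, and the ratio was lower after the drug, at 1.87 and 1.89, against 2.01 and 2.04 untreated. Per kb of transcript the MRPS sum had a slightly lower mean after the drug, at 666.1 and 659.7, against 701.6 and 660.8 untreated, and the groups overlapped. Within that sum MRPS6 had a mean of 50.4 after the drug and 209.5 untreated, a larger fall than that of the sum. No p is given for these sums; an exact permutation test of 2 against 2 libraries cannot reach 0.05.

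**Figure D4:**
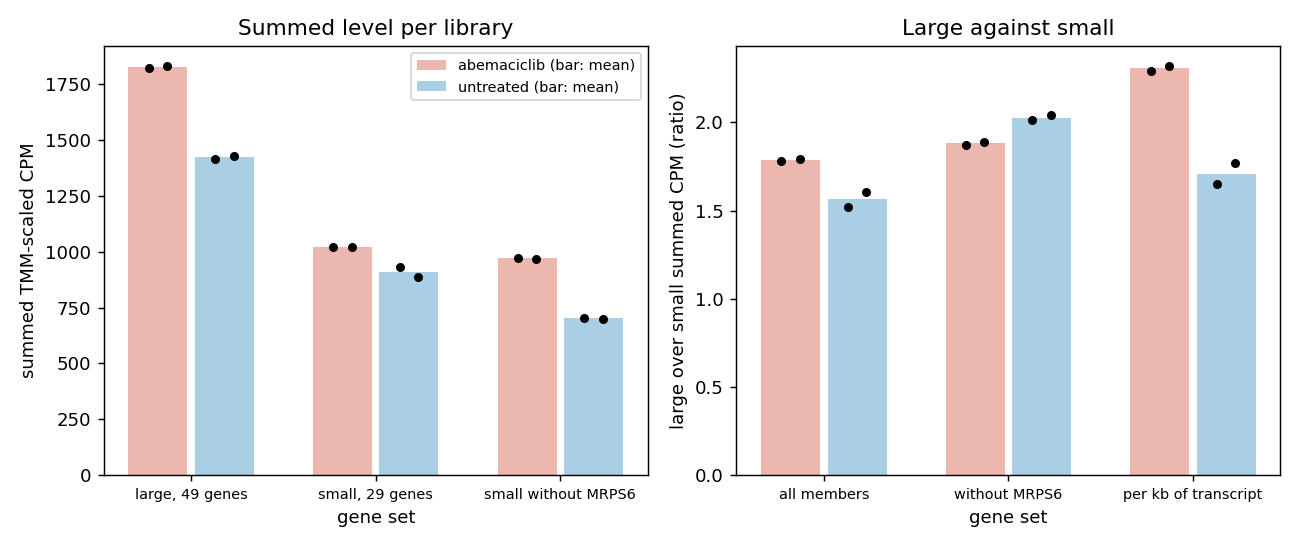
Summed TMM-scaled CPM of the subunits (left) and the large over small ratio of summed levels (right), with bars for the mean and points for the 2 libraries of each group. The ratio over all members is 1.78 and 1.79 after abemaciclib against 1.52 and 1.61 untreated, and it is lower after the drug, 1.87 and 1.89 against 2.01 and 2.04, without MRPS6.

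The members were also grouped by origin, after the values were seen, and the difference between origins was not tested. For comparison, 38% of all tested genes were higher and 39.3% lower. Of 46 with a bacterial homologue 36 (78.3%) were higher and 7 lower, with a median log2 fold change of 0.41. Of 31 counted as specific to mitochondria, MRPS18A and MRPS18B among them as extra copies of the S18 family, 20 (64.5%) were higher and 4 lower, also with a median of 0.41. In the large subunit 23 of 30 with a bacterial homologue and 11 of 19 mitochondria-specific members were higher. In the small subunit 13 of 16 with a bacterial homologue and 9 of 12 mitochondria-specific members were higher. Annotated exons of another gene overlapped 41 members, 16 of them on the same strand. Of the 37 members with no such overlap 28 were higher and 3 lower, with a median of 0.43. Members whose counts were whole in each library numbered 59, with 47 higher and 6 lower, and the 19 others had 9 higher and 5 lower.

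The genes of the 5 proteins of the mitoribosome with other symbols all rose, while 38% of all tested genes were called higher. AURKAIP1, a small subunit protein, had 96.4 and 99 CPM after abemaciclib, against 52.5 and 47 CPM untreated (0.98 ± 0.05). DAP3, a GTP-binding protein of the small subunit also studied in cell death, had 98.3 and 95.2 CPM after the drug, against 57.9 and 59.9 CPM untreated (0.71 ± 0.04). CHCHD1 rose by 0.69 ± 0.07, the pentatricopeptide repeat protein PTCD3 by 0.37 ± 0.06 and the large subunit protein GADD45GIP1 by 0.24 ± 0.05. Each rose, as most MRPS and MRPL genes did.

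Factors that build the mitoribosome moved both ways. Of 26 assembly factors 16 were higher, 7 lower and 3 not called, with a median of 0.27, while among all tested genes 38% were higher and 39.3% lower. With the GC and length correction 17 were higher and 5 lower, with a median of 0.56. TFB1M, the methyltransferase of the small ribosomal RNA, had 7.68 and 9.21 CPM after abemaciclib, against 22.3 and 23.2 CPM untreated (-1.42 ± 0.09, adjusted p = 7.66e-15 in edgeR). MPV17L2, which takes part in assembly at the inner membrane, had 17.4 and 19.3 CPM after the drug, against 6.56 and 8.34 CPM untreated, 2.45-fold higher. FASTKD2, which binds the large ribosomal RNA, rose by 1.13 ± 0.07 and the helicase DDX28 by 1.02 ± 0.11. The rRNA factors RPUSD4 (-0.53 ± 0.10) and NSUN4 (-0.41 ± 0.09) fell.

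Of 17 factors of mitochondrial translation 11 (64.7%) were higher, 0 lower and 6 not called, with a median of 0.43. The shares over all tested genes were 38% higher and 39.3% lower. Elongation factor GFM1, which moves the ribosome along the mRNA, had 43.9 and 45 CPM after abemaciclib, against 10.1 and 11.6 CPM untreated, and at 2.03 ± 0.07 rose further than any MRPL or MRPS gene. GFM2, which splits the ribosome for recycling, rose by 1.32 ± 0.07, the deformylase PDF by 1.23 ± 0.15 and LRPPRC, which stabilises mitochondrial mRNAs, by 1.08 ± 0.04. LRPPRC's partner SLIRP rose by 0.77 ± 0.06. The release factor MTRF1 (-0.16 ± 0.11) and the recycling factor MRRF (0.00 ± 0.07) did not pass.

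Among 13 regulators of mitochondrial biogenesis 5 were higher and 5 lower, 38.5% in each direction and close to the shares of all tested genes (38% and 39.3%). Their median was -0.11, and 0.19 with the GC and length correction, which moved the median of all tested genes from -0.01 to 0.07. The coactivator PPARGC1B had 10.3 and 10.1 CPM after the drug, against 1.7 and 1.65 CPM untreated (2.60 ± 0.15). MTERF1 rose by 0.79 ± 0.13 and TFAM, which packages mitochondrial DNA, by 0.69 ± 0.08. The mitochondrial RNA polymerase POLRMT fell by 0.68 on the log2 scale, with 69.4 and 72.7 CPM after the drug and 111.7 and 116.3 CPM untreated. NRF1 transcripts were lower too (-0.34 ± 0.10), as were those of YY1 (-0.22 ± 0.03), and GABPA did not pass (0.22 ± 0.12).

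The mRNAs that this ribosome translates, the 13 mRNAs of mitochondrial DNA, were all higher, by 1.02 to 2.36 with a median of 1.48. MT-ND5 rose furthest, with 8324 and 8343 CPM after abemaciclib and 1577 and 1673 CPM untreated. Those mRNAs were called in each of the alternatives that kept them in the table. Transcripts of cytosolic ribosomal proteins, counted with paralogs such as RPL22L1 and RPL26L1, went the other way. Of 84 tested 75 (89.3%) were lower, 6 higher and 3 not called, with a median of -0.46. Among all tested genes 39.3% were lower and 38% higher. The 2 called at least 1.5-fold higher were the paralogs RPL22L1 (0.88) and RPL26L1 (0.65). Over the 12 alternatives 65 to 75 of the cytosolic genes were lower, and 48 to 58 of the 78 mitochondrial ribosomal protein genes were higher.

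**Figure D5:**
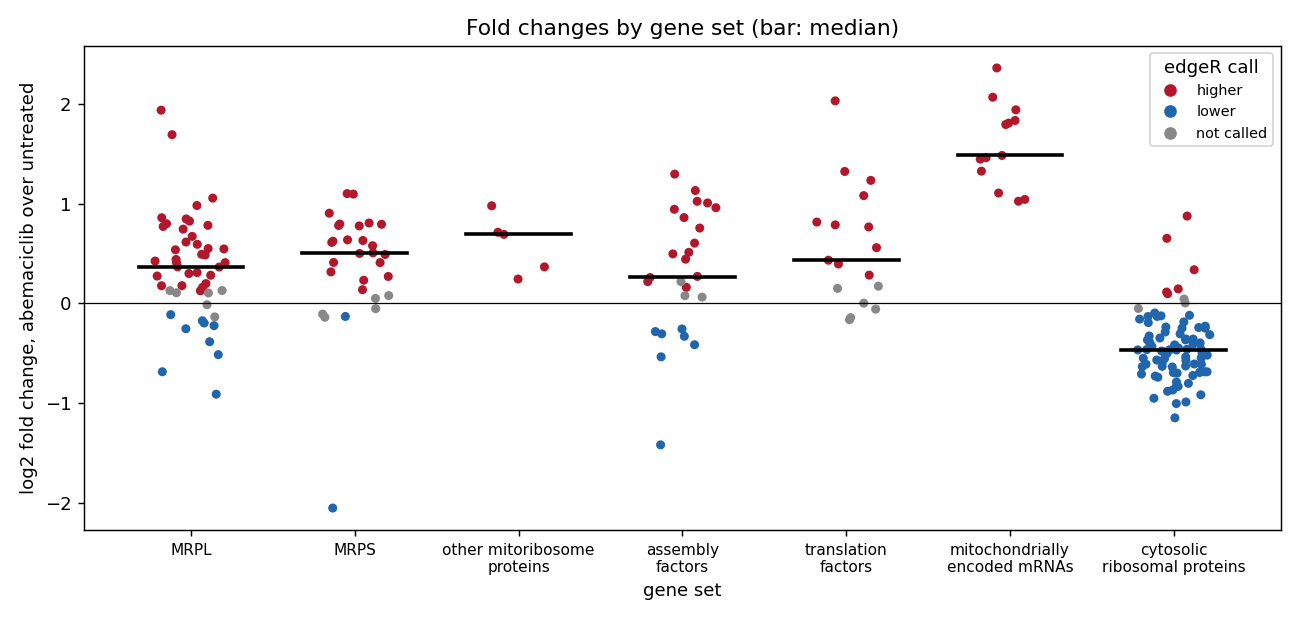
Log2 fold change (abemaciclib over untreated) of single genes in 7 sets, coloured by the edgeR call, with a bar at each set's median. The medians are 0.36 for MRPL, 0.50 for MRPS, 0.69 for other mitoribosome proteins, 0.27 for assembly factors, 0.43 for translation factors, 1.48 for mitochondrially encoded mRNAs and -0.46 for cytosolic ribosomal proteins.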

How the data were processed

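Each library was deposited as a table of expected counts, estimates of the reads per gene that need not be whole, per the file headers. STAR (2.7.2b), RSEM (1.3.1) and the build GRCh38 appear in the submitters' processing notes, without roles. The annotation release and strand setting are not given in the sources used here. Per the labels' protocols, RNA was isolated with Trizol and libraries were made with TruSeq Stranded mRNA.

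Counts were rounded and tested with edgeR 4.0.16 in R 4.3.3 (filterByExpr with its minimum count of 10, TMM, robust quasi-likelihood F test, group alone, two-sided). The standard error is the size of the log2 fold change over the square root of F. The script was tested on simulated data. Replicate pairs differed by more than sampling noise (chi-square per degree of freedom 1.95 for abemaciclib and 3.56 for untreated). Coordinates, overlaps, lengths and GC content came from GENCODE release 29 on GRCh38 (96.4% of identifiers matched), using the APPRIS principal transcript. DESeq2 1.42.0 and other settings were alternatives. Members and lists were chosen with earlier results of these data known. Genes were named by rank of change and level within a subunit, or for a role or list fixed with the design. The precision of CPM is limited by depth: 3 counts are 0.0898 to 0.127 CPM.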

Additional observations from a re-analysis of the deposited data

How the results depend on the processing

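The number of members called higher (56) was 52 to 54 when a library was left out, 48 with DESeq2, 58 with scaling by library size and 57 with the GC and length offsets, and 28 among the 37 members with no annotated overlap, a choice made after seeing the data. The number called lower (11) was 7 with library size scaling, 5 with DESeq2, 4 with the GC and length offsets with or without the replicate block, 3 among members with no overlap, and 5 to 11 when a library was left out, the 5 being without abemaciclib replicate 2. With the replicate block alone 56 were higher and 11 lower. The replicate numbers are not stated to mark a shared culture or day, and the deviations of same-numbered libraries correlated at -2.2e-04 across genes. Of 67 called members 51 kept call and direction in all 12 alternative fits, 48 of them higher and 3 lower (MRPL10, MRPL42, MRPL48). With the GC and length offsets the sign turned for MRPL23 (0.028 with the offsets and 0.026 with the block too), MRPL28 (0.20, 0.20) and MRPL38 (0.57, 0.56). It also turned for MRPL43 (0.020, 0.020), MRPL49 (0.0060, 0.0076), MRPL55 (0.10, 0.10), MRPS24 (0.24, 0.24) and MRPS26 (0.40, 0.41). The offsets moved the median of all tested genes too, from -0.012 to 0.069. With the offsets MRPL23, MRPL43 and MRPL49 were above 0 but below that median. Without the offsets they were at -0.68, -0.22 and -0.11, so each moved further than that median did.

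The large subunit median (0.36) was 0.42 with library size scaling, 0.38 without the filter, 0.39 with the offsets and 0.39 with offsets and block, 0.38 with DESeq2, 0.34 with GADD45GIP1 added, and 0.31 to 0.37 when a library was left out. The small subunit median (0.50) was 0.56 with library size scaling, 0.40 with the offsets and 0.41 with offsets and block. It was 0.50 to 0.51 when a library was left out. The median of all tested genes itself moved by 0.054 with library size scaling and by 0.081 with the offsets. The log2 ratio of the summed large subunit (0.36) was 0.42 by library size, 0.53 by library size without mitochondrially encoded genes, 0.33 as a mean of log2(CPM + 1) and 0.39 per kb. That of the small subunit (0.17) was 0.22, 0.34, 0.36 and -0.039 on the same scales, and 0.47 without MRPS6. The scale without mitochondrially encoded genes moves the median of all tested genes by 0.16, and relative to that shift both sums stay near their TMM values. The log2 ratio of large over small (0.19) was -0.027 as a mean of log2(CPM + 1), 0.43 per kb, 0.087 with the 5 other proteins added and -0.11 without MRPS6. The small subunit sum per kb reversed in its mean, though the libraries of the groups overlapped. Within it MRPS6 fell from a mean of 209.5 to 50.4 while the mean of the whole sum fell from 681.2 to 662.9. The cause of the fall of MRPS6 was not tested.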
